A study of Mus musculus with 37 samples.

Results

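The Cyp2c family, a set of cytochrome P450 genes on mouse chromosome 19, most of them in 1 cluster, was followed through 10 of its members in liver RNA of 37 mice: Cyp2c29, Cyp2c37, Cyp2c38, Cyp2c39, Cyp2c40, Cyp2c44, Cyp2c50, Cyp2c54, Cyp2c69 and Cyp2c70. The members were taken by their symbols and make up 10 of the 24421 gene rows. All 10 passed the filter on low counts and are among the 15152 genes tested. The tables hold 16 Cyp2c rows in all, and the other 6 (Cyp2c53-ps, Cyp2c55, Cyp2c65, Cyp2c66, Cyp2c67 and Cyp2c68) are given beside the members where they bear on them. The mice were of the C57BL/6 strain and 2 months old, with 1 library of total liver RNA, depleted of ribosomal RNA, from each. The 6 groups, each of 1 genotype and 1 sex, were 6 wild-type (WT) males, 9 STAT5B-Y665F males, 4 STAT5B-Y665H males, 6 WT females, 6 STAT5B-Y665F females and 6 STAT5B-Y665H females. Y665F and Y665H replace the same tyrosine of STAT5B, in the SH2 domain with which the protein binds phosphorylated tyrosines, by phenylalanine and by histidine. Whether a mouse carried its substitution on 1 allele or on both is not given in the labels, nor are litters or collection times. The labels name library kits of more than 1 maker and do not say which library was made with which.

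CYP2C enzymes are heme proteins of the hepatocyte's endoplasmic reticulum. With electrons passed on by P450 oxidoreductase (POR) they oxidise drugs and steroids, and several of them turn arachidonic acid into epoxides and hydroxylated fatty acids that act as signals. The rodent family grew by repeated gene duplication, so that several members differ from a neighbour at few positions. In mouse liver a number of Cyp2c genes are known for sex-biased expression, which follows the pattern of growth hormone release, pulsatile in males and steadier in females, and which is read by hepatocytes largely through STAT5B. CYP2C70 is known in addition as the enzyme that makes muricholic acids, bile acids that rodents have and humans lack.

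In the GRCm38 assembly (mm10, the build the submitters' processing notes name) with GENCODE M21, 9 members lie in 1 cluster between Cyp2c29 and Cyp2c70, and Cyp2c44, listed there as Cyp2c23, lies apart from it at chr19:44005022-44029208. In the order of the chromosome, Cyp2c29 is at chr19:39269405-39330713, Cyp2c38 at chr19:39389556-39463075 and Cyp2c39 at chr19:39510862-39568529. Cyp2c67 (chr19:39608842-39649051) and Cyp2c68 (chr19:39688834-39741054), which are no members, precede Cyp2c40 at chr19:39767071-39812814 and Cyp2c69 at chr19:39842814-39886799. Cyp2c37 at chr19:39992424-40012243, Cyp2c54 at chr19:40037940-40073827 and Cyp2c50 at chr19:40089688-40113950 follow, and Cyp2c70 at chr19:40153353-40187333 closes the cluster. Cyp2c29, Cyp2c37, Cyp2c39 and Cyp2c50 are read from the plus strand and the other members from the minus strand. Each member is protein-coding with 9 exons in the transcript used here.

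Which member a read belongs to was not equally clear for all 10. GENCODE coding sequences were taken as copies where matching bases made up at least 90% of the longer sequence. Cyp2c40, Cyp2c67, Cyp2c68 and Cyp2c69 form 1 set (Cyp2c69 and Cyp2c67 are 97.69% identical). Cyp2c37, Cyp2c50 and Cyp2c54 form another (96.12% between Cyp2c37 and Cyp2c50) and Cyp2c38 and Cyp2c39 a pair (94.22%). Cyp2c40 has a longer coding sequence (1560 bases, against 1473 for Cyp2c69), which lowers its percentages. Its aligned bases hold 31 mismatches to Cyp2c69, where those of Cyp2c67 hold 34. Of all 50-base words in the transcript of Cyp2c40, 27.88% occur in no other annotated transcript. The share is 45.21% for Cyp2c69, 69.26% for Cyp2c50, 69.92% for Cyp2c37, 74.32% for Cyp2c54, 87.95% for Cyp2c39, 92.55% for Cyp2c38 and 97.92% for Cyp2c29, and 100% for both Cyp2c44 and Cyp2c70. With words of 100 bases it is 55.87% for Cyp2c40 and 63.74% for Cyp2c69, and 90.6% or more for the other members. Reads aligned to several places have a row of their own in each file, and the counting options are not given in the sources used here. Members of a set are therefore uncertain relative to each other. The Cyp2c53-ps pseudogene overlaps the 5′ part of the annotated Cyp2c29 locus on the same strand. To show how close the copies are, a stretch of 60 coding bases is printed for the first set, 5′ to 3′, beginning at coding base 264 of Cyp2c69, with the positions that differ within the set in capitals. It holds 8 of the 66 differing positions in the 1473 aligned coding bases.
Cyp2c69: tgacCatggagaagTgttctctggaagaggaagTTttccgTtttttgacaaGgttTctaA
Cyp2c40: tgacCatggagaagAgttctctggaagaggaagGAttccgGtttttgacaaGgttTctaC
Cyp2c67: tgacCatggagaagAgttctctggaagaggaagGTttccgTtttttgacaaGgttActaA
Cyp2c68: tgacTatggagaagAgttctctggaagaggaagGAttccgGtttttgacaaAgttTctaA

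The same is shown for the second set, beginning at coding base 791 of Cyp2c50, where 13 of the 98 differing positions among 1470 aligned coding bases fall. Across it single bases tell apart these 3 genes, whose levels moved in different directions in Y665F males.
Cyp2c50: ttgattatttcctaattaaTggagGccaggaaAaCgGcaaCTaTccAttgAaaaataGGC
Cyp2c37: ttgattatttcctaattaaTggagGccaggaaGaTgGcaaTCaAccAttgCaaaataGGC
Cyp2c54: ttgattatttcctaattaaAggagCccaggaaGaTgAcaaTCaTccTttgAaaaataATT

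Upstream sequence was read from RefSeq (GRCm38.p6), which matched 8 of the 10 members. Both strands of the 250 bases before each annotated start were searched for 3 motifs: TTCNNNGAA, the core that STAT5 proteins bind, ATTGATTA for HNF6 and CAAAGTCCA for HNF4A. No window of a Cyp2c gene held TTCNNNGAA or ATTGATTA, which occur in 7.02% and 0.557% of all 32851 windows of this length. CAAAGTCCA, which occurs in 0.384% of them, was found once each upstream of the members Cyp2c40, Cyp2c69 and Cyp2c70 and of Cyp2c67, Cyp2c68 and Cyp2c65. Aligned with an offset between their annotated starts, the windows of Cyp2c40 and Cyp2c69, the members with the widest range of levels between groups, differ at 3 bases. The windows of their copies Cyp2c67 and Cyp2c68 each had 14 mismatches to that of Cyp2c69. With unaligned bases counted against it, identity to the Cyp2c69 window was 74.4% for Cyp2c67, 92.8% for Cyp2c68 and 86.8% for Cyp2c40. Cyp2c67 did not share the direction of Cyp2c40 and Cyp2c69 in Y665F males (values are given with the other Cyp2c rows). To set them beside the window of Cyp2c70, whose level ranged little, all 3 are printed with the CAAAGTCCA match in capitals, up to the first base that GENCODE or RefSeq counts to the gene. They cover chr19:39812815-39813064 for Cyp2c40, chr19:39886800-39887019 for Cyp2c69 and chr19:40187334-40187536 for Cyp2c70, all on the minus strand and written 5′ to 3′. The first base of the match lies 45, 75 and 64 bases before the RefSeq start.
Cyp2c40: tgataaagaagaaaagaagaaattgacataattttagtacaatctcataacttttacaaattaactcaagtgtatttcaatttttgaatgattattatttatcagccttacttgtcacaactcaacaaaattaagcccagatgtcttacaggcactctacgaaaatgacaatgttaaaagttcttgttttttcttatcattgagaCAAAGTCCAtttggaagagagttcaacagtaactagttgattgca
Cyp2c69: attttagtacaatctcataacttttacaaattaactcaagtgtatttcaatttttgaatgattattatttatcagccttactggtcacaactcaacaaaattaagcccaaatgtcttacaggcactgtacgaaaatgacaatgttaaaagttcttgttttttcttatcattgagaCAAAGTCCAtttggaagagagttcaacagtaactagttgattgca
Cyp2c70: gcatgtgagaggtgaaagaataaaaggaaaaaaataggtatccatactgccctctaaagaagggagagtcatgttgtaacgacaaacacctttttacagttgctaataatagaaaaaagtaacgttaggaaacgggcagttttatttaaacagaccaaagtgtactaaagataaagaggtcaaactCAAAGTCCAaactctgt

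Levels are given as CPM, a gene's count relative to the library's total, with totals adjusted by the trimmed mean of M-values (TMM) so that libraries can be compared, and as CPM per kilobase of transcript where genes are compared with each other. Counts assigned to genes came to 49141951 to 73937726 per library in males and 24388434 to 40864173 in females. The sexes did not overlap in depth, and anything in the preparation that followed sex cannot be told apart from sex. Arntl, the clock gene that encodes BMAL1, was higher in WT males than in WT females (log2 fold change 2.66, adjusted p = 3.68e-07) and in Y665F males than in WT males (1.37, adjusted p = 7.18e-05), and the part that hour of collection has in these comparisons was not tested. Xist lay between 412 and 863 CPM in the 18 female libraries and at most at 0.453 CPM in the 19 male libraries, and the Y-linked Ddx3y had 0 counts in every female library. Counts per gene cannot show the substitution itself. Stat5b RNA was 96.4 CPM ± 10.5 (n = 6, SD) in WT males and 108 CPM ± 5.34 (n = 9, SD) in Y665F males (log2 fold change 0.17, adjusted p = 0.0370), and against WT it was called in no other group. The 10 members together held 0.472% of gene counts in WT males, 0.523% in WT females, 0.470% in Y665F males, 0.473% in Y665H males, 0.553% in Y665H females and 0.222% in Y665F females. The sum was lowest in the Y665F females.

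**Figure D1:**
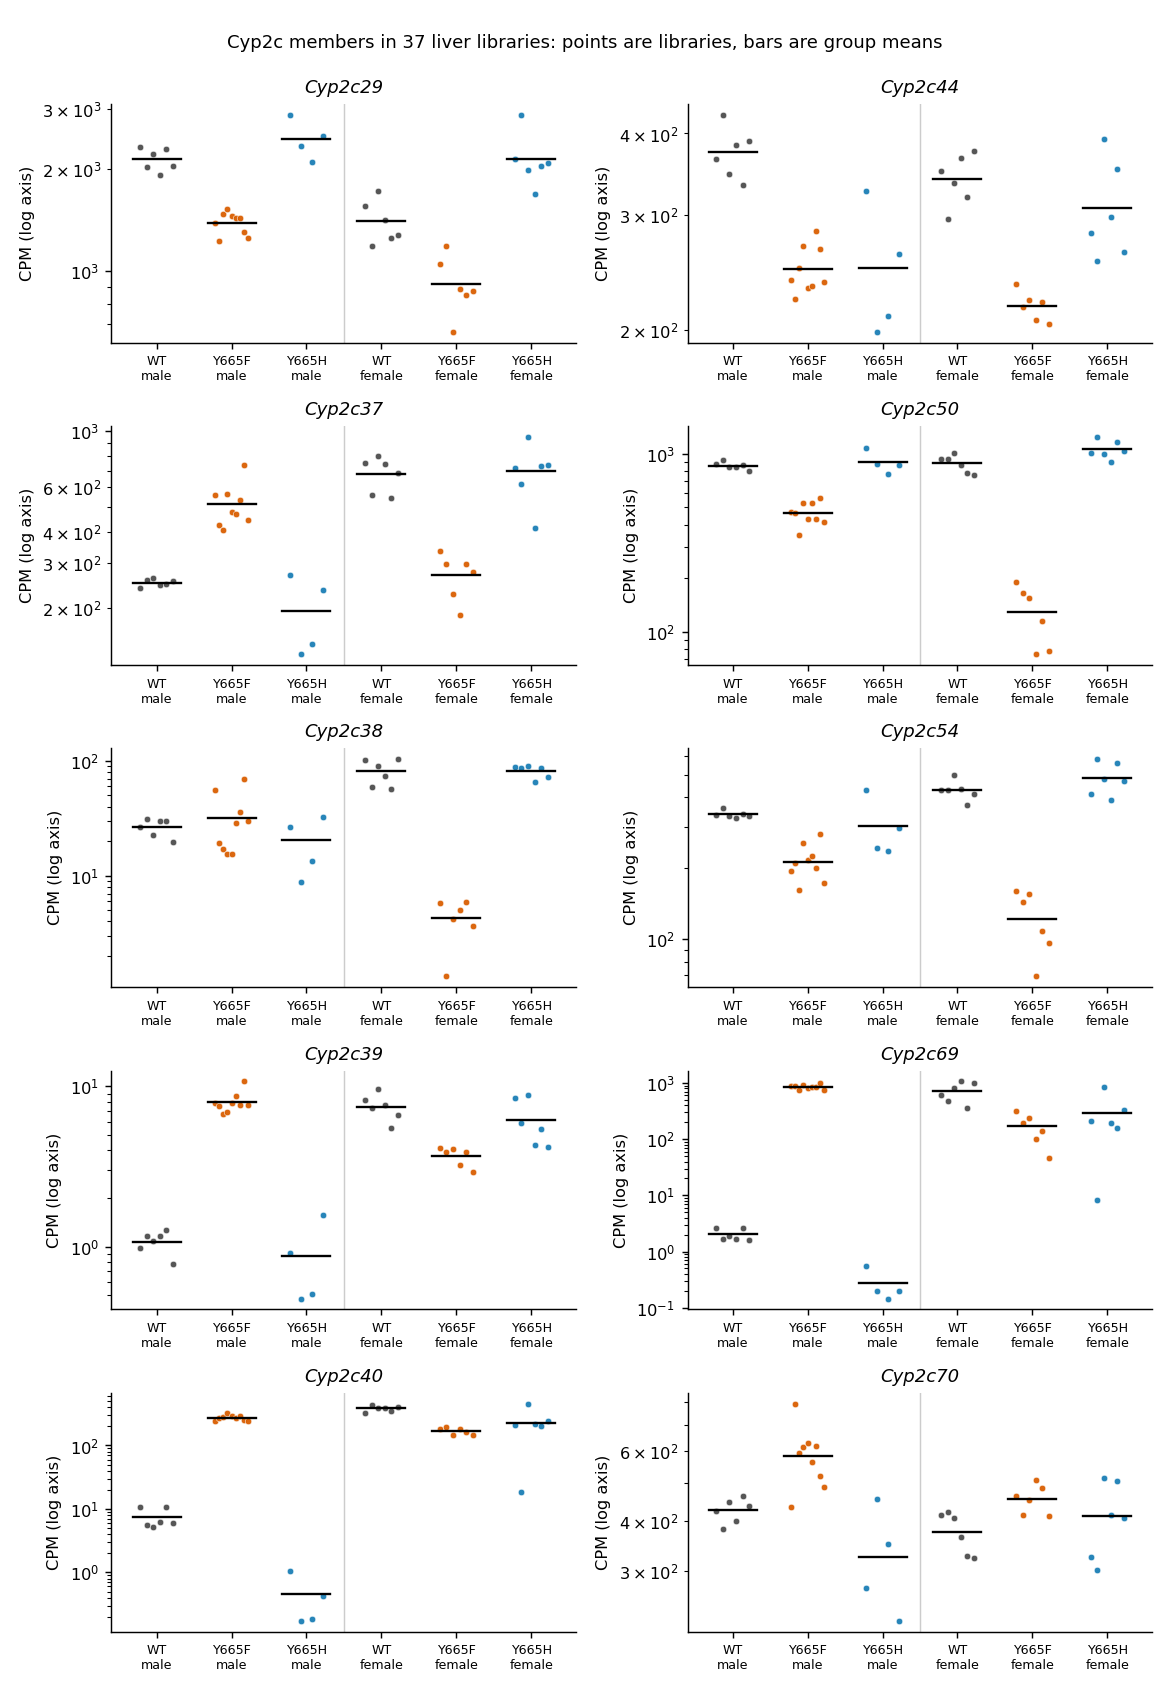
TMM-scaled CPM (log axis) of each of the 10 members in the 37 libraries, grouped by genotype and sex, where points are libraries and bars are group means. Cyp2c69 and Cyp2c40 lie at 2.02 and 7.38 CPM in WT males and at 850.1 and 273 CPM in Y665F males, while Cyp2c44 and Cyp2c70 stay within a narrow range.

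Cyp2c69 had the widest range of all members. In WT males its level ran from 1.62 to 2.67 CPM with a median of 1.78, and in WT females from 352 to 1064 CPM with a median of 708. The 9 Y665F males lay from 739 to 1008 CPM with a median of 848, within the WT female range and above every WT male library. The 4 Y665H males were at 0.544, 0.201, 0.145 and 0.198 CPM, all below the lowest WT male, on 8 to 37 counts a library. Among females, Y665F libraries ran from 46.1 to 311 CPM with a median of 166, all below the lowest WT female, and Y665H libraries from 8.23 to 836 CPM with a median of 201, overlapping WT. By mean, the order was Y665F males, WT females, Y665H females, Y665F females, WT males and Y665H males. Neighbours in this order overlapped down to Y665F females, and neither WT males nor Y665H males overlapped the group above them.

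Cyp2c40, whose enzyme hydroxylates arachidonic acid, followed nearly the same order. WT males ran from 5.27 to 10.6 CPM with a median of 6.12 and WT females from 323 to 434 CPM with a median of 396. Y665F males ran from 240.2 to 319.8 CPM with a median of 275, so that every Y665F male was above every WT male and below every WT female. The 4 Y665H males were at 1.06, 0.172, 0.181 and 0.426 CPM, below every WT male. Y665F females ran from 145 to 199 CPM with a median of 174 and Y665H females from 18.7 to 455 CPM with a median of 213. Of the Y665H females, replicate 2 stood apart in both genes, at 18.7 CPM for Cyp2c40 and 8.23 CPM for Cyp2c69, with the other 5 at 203 CPM or more and 156 CPM or more. Replicate 3 was the highest, at 455 and 836 CPM. In its Xist and Ddx3y counts replicate 2 was like the other female libraries.

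The set of Cyp2c37, Cyp2c50 and Cyp2c54, all known to oxidise arachidonic acid, did not move as 1. Cyp2c37 ran from 240.3 to 263 CPM with a median of 252 in WT males and from 545 to 799 CPM with a median of 715 in WT females. Y665F males ran from 406 to 733 CPM with a median of 480.2, above every WT male, and Y665F females from 187 to 336 CPM with a median of 287, below every WT female. The Y665H males were at 269.5, 131, 143 and 235 CPM and the Y665H females ran from 413 to 951 CPM with a median of 723, both overlapping WT. Cyp2c37 thus had 2 tiers, with Y665H females, WT females and Y665F males above and Y665F females, WT males and Y665H males below, and neighbours overlapped within each tier but not between them.

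Cyp2c50 had no such step between the sexes of WT. WT males ran from 798 to 918 CPM with a median of 856 and WT females from 757 to 1016 CPM with a median of 900.3. Y665F males ran from 351 to 560.4 CPM with a median of 465 and Y665F females from 74.7 to 189.5 CPM with a median of 135, each below all WT libraries of its sex and the females also below all Y665F males. The Y665H males were at 1082, 874, 768 and 869 CPM and the Y665H females ran from 893 to 1244 CPM with a median of 1024. Y665H and WT groups of both sexes overlapped as neighbours in the order of means. Cyp2c54 was lower, and its WT females, at 373 to 500.1 CPM, were above all WT males, at 328 to 361 CPM. As for Cyp2c50, the Y665F males and then the Y665F females had the lowest means. Its Y665F males lay between 161 and 279 CPM and its Y665F females between 69.4 and 159.7 CPM. In the Y665H males it was at 429.9, 243, 236 and 297 CPM and the Y665H females between 389 and 582 CPM.

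Cyp2c38 and Cyp2c39 had the lowest means per kilobase of all members in 4 of the 6 groups, WT males and Y665H males being the others. Cyp2c38, which makes epoxides of arachidonic acid, ran from 19.8 to 31.4 CPM with a median of 28.2 in WT males and from 56.9 to 103 CPM with a median of 82.0 in WT females. Its Y665F males, from 15.4 to 68.9 CPM with a median of 28.5, spread on both sides of WT males, while the Y665F females, from 1.33 to 5.92 CPM with a median of 4.59, were below every other library of the study. Levels of 26.7, 8.83, 13.5 and 32.2 CPM were found in the Y665H males and the Y665H females between 65.7 and 90.9 CPM. Cyp2c39, known as a retinoic acid hydroxylase, lay between 0.781 and 1.28 CPM in WT males and 5.47 and 9.69 CPM in WT females. The Y665F males lay between 6.71 and 10.7 CPM, within and just above the WT female range, and the Y665F females between 2.9 and 4.12 CPM, below it. The Y665H males were at 0.911, 0.474, 0.508 and 1.58 CPM and the Y665H females between 4.20 and 8.81 CPM.

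Cyp2c29, which oxidises arachidonic acid and is known to be induced through the receptor CAR, was the highest member per kilobase in every group. WT males ran from 1927 to 2325 CPM with a median of 2129 and WT females from 1184 to 1727 CPM with a median of 1346, with no overlap. Y665F males ran from 1225 to 1522 CPM with a median of 1433, below every WT male, and Y665F females from 664 to 1186 CPM with a median of 882, where the highest library overlapped the lowest WT female. The Y665H males were at 2884, 2333, 2099 and 2510.4 CPM and the Y665H females ran from 1686 to 2893 CPM with a median of 2067. Cyp2c44, an epoxygenase of arachidonic acid, stayed between 204 and 428 CPM over the WT and Y665F libraries. By mean the order was WT males, WT females, Y665H females, Y665H males, Y665F males and Y665F females, and each neighbouring pair overlapped. The group means were 375 CPM ± 33.6 (n = 6, SD) in WT males, 248 CPM ± 20.3 (n = 9, SD) in Y665F males, 341 CPM ± 30.0 (n = 6, SD) in WT females and 217 CPM ± 11.2 (n = 6, SD) in Y665F females. The Y665H males were at 327, 198, 209.6 and 261 CPM and the Y665H females averaged 307 CPM ± 54.5 (n = 6, SD). Cyp2c70 overlapped between every pair of neighbouring groups, with means from 326 CPM in Y665H males to 584 CPM ± 102 (n = 9, SD) in Y665F males and its highest library, 791 CPM, in the latter.

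Per kilobase, Cyp2c29 was at 1199 ± 89.6 CPM in WT males (mean and SD of the libraries of a group, as in the rest of the paragraph) and 787 ± 116 CPM in WT females, and Cyp2c50 came next at 473 ± 22.4 and 487 ± 55.1. The third place was taken by Cyp2c70 in WT males (248 ± 17.5) and by Cyp2c69 in WT females (437 ± 176), while Cyp2c69 was ninth of the 10 in WT males (1.22 ± 0.295). In Y665F males Cyp2c69 was second, at 516 ± 51.7 per kilobase. As a share of the members' summed CPM per kilobase, Cyp2c69 was 0.0495% ± 0.0102 in WT males, 19.9% ± 1.10 in Y665F males and 14.4% ± 4.89 in WT females (mean and SD of libraries). Cyp2c50 went from 19.3% ± 0.880 to 9.85% ± 0.997 of the sum in Y665F males and from 16.5% ± 1.95 to 5.06% ± 1.43 in Y665F females. In Y665F females Cyp2c70 was second, with 19.5% ± 3.15 of the sum against 7.45% ± 1.07 in WT females, although its own level (456 CPM ± 38.5 (n = 6, SD), against 376 CPM ± 44.7 (n = 6, SD) in WT females) overlapped WT. These shares were not tested. Lengths were taken in full, though unique 50-base words were 27.88% for Cyp2c40 and 45.21% for Cyp2c69, against 97.92% for Cyp2c29 and 100% for Cyp2c70. What this does to the ranks and shares was not tested.

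**Figure D2:**
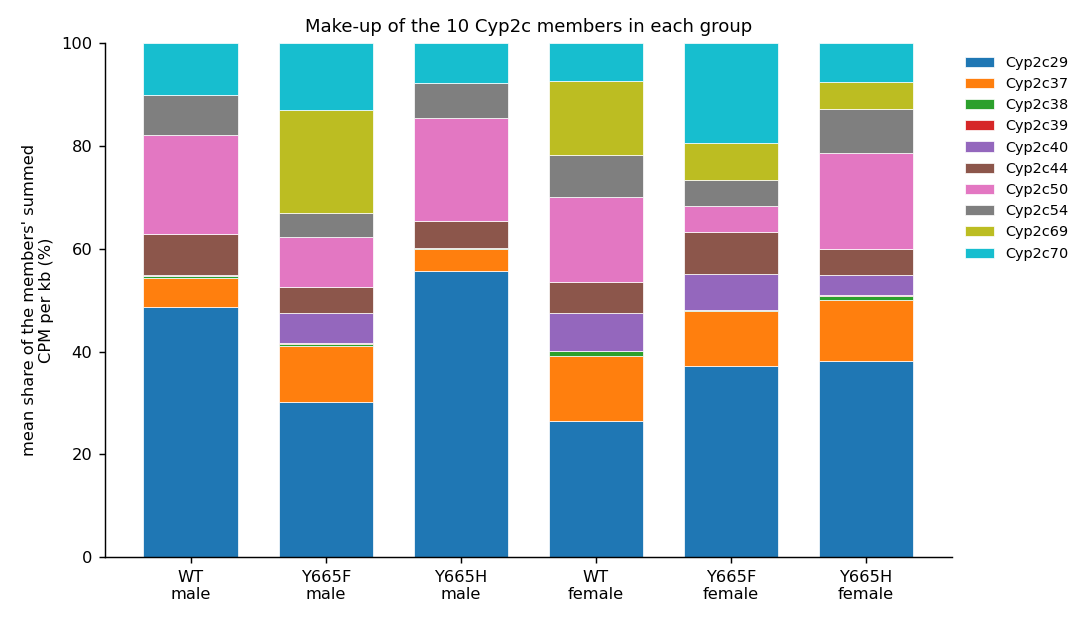
Stacked bars of the mean share (%) of each member in the summed CPM per kilobase of the 10 members, by group. Cyp2c69 takes up 19.9% in Y665F males and 0.0495% in WT males, and Cyp2c29 is the largest part of every bar.

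WT males and females differed in 6 members by edgeR's quasi-likelihood test, in which a gene is called at a Benjamini-Hochberg adjusted p under 0.05 over all tested genes. Cyp2c69 (log2 fold change -8.48, SE 0.65, adjusted p = 7.63e-13) and Cyp2c40 (-5.70, SE 0.39, adjusted p = 5.11e-14) were lower in males by the largest factors, followed by Cyp2c39 (-2.80), Cyp2c38 (-1.60) and Cyp2c37 (-1.43). The summed Cyp2c40 set differed by less than the rows of Cyp2c69 and Cyp2c40 (-1.97, SE 0.20, adjusted p = 1.02e-09). Cyp2c29 was higher in males (0.61, SE 0.11, adjusted p = 3.27e-05). Cyp2c44, Cyp2c50 and Cyp2c70 were not called, with 95% intervals of -0.063 to 0.33, -0.35 to 0.26 and -0.10 to 0.45. Cyp2c54, whose 2 groups did not overlap, was not called either (-0.35, SE 0.15, adjusted p = 0.0593), but was without WT female replicate 5 (-0.38, adjusted p = 0.0481), with only these 2 groups fitted (-0.32, adjusted p = 3.31e-04) and as the sum of its copies (-0.46, SE 0.13, adjusted p = 0.00293), which include Cyp2c37 and Cyp2c50. Cyp2c70 was called with only these groups fitted (0.20, adjusted p = 0.0382). In the fit of all 37 libraries, 5 of 10 members were lower and 1 was higher in males, where 26.8% and 23.0% of all tested genes were. The members' median log2 fold change was -0.89 and that of all tested genes -0.021. With 1 library a mouse, the spread between mice within groups was estimated for each gene over all 37 libraries together. A p-value therefore does not rest on the spread of the compared groups alone. In whole liver, fewer cells of a type and less RNA per cell cannot be told apart.

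In Y665F males 5 members rose and 4 fell. Cyp2c69 rose by 8.72 (SE 0.64, adjusted p = 1.18e-13) and Cyp2c40 by 5.21 (SE 0.38, adjusted p = 6.75e-14) on the log2 scale, with 9 of 9 libraries above all WT males in both. The summed Cyp2c40 set rose by less (1.83, SE 0.19, adjusted p = 5.94e-10). Cyp2c39 rose by 2.89 (SE 0.19, adjusted p = 1.2e-14) and Cyp2c37 by 1.03 (SE 0.16, adjusted p = 1.09e-06), also without overlap with WT males. The sum of Cyp2c38 and Cyp2c39 was not called (0.52, SE 0.24, adjusted p = 0.0729), and that of the Cyp2c37 set fell (-0.28, SE 0.11, adjusted p = 0.0374). In WT males Cyp2c39 made up 1.08 of the 27.8 CPM of its pair, and Cyp2c37 252 of the 1448 CPM of its set. These sums mostly report the other rows and do not test Cyp2c39 or Cyp2c37 alone. Cyp2c70 rose by 0.46 (SE 0.12, adjusted p = 0.00242), with overlap. Cyp2c50 (-0.89, SE 0.14, adjusted p = 1.13e-06), Cyp2c54 (-0.67, SE 0.14, adjusted p = 1.12e-04), Cyp2c29 (-0.62, SE 0.10, adjusted p = 3.26e-06) and Cyp2c44 (-0.60, SE 0.088, adjusted p = 6.66e-07) fell, each without overlap. Cyp2c38 was not called (0.25, SE 0.28, adjusted p = 0.470, 95% interval -0.32 to 0.83). In counts, 5 of 10 members were called higher, where 27.2% of tested genes were, and 4 lower, where 25.3% were. Their median was 0.36, against -0.0076 over all tested genes.

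In Y665F females 9 of the 10 members fell and none rose. Cyp2c38 fell furthest (-4.22, SE 0.37, adjusted p = 1.88e-11), then Cyp2c50 (-2.77, SE 0.16, adjusted p = 5.64e-16), Cyp2c69 (-2.08, SE 0.48, adjusted p = 6.33e-04) and Cyp2c54 (-1.82, SE 0.16, adjusted p = 1.52e-11). The falls of Cyp2c37 (-1.33), Cyp2c40 (-1.17), Cyp2c39 (-1.02), Cyp2c44 (-0.65) and Cyp2c29 (-0.61) had adjusted p-values of 0.00382 or less. Among the members called, the groups overlapped for Cyp2c29 only. How many of all tested genes had groups without overlap was not counted. Cyp2c70 was not called (0.28, SE 0.14, adjusted p = 0.10, 95% interval 0.0013 to 0.55), but was called higher when only the 2 groups were fitted (0.31, adjusted p = 0.00837). Of all tested genes 23.3% were called lower and 17.8% higher in this comparison. The members' median was -1.25, against -0.019 over all tested genes.

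**Figure D3:**
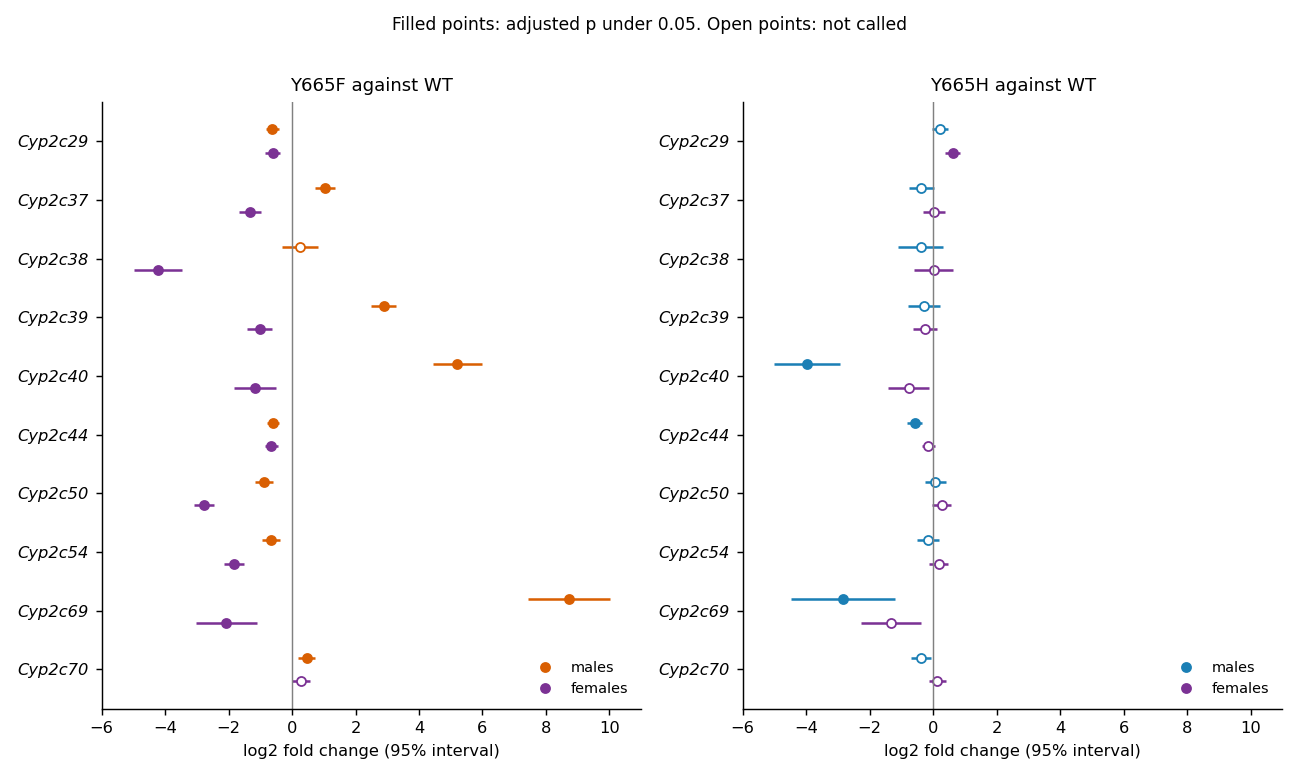
Log2 fold changes of the 10 members with 95% intervals, Y665F against WT (left) and Y665H against WT (right), in males and in females, with filled points for an adjusted p under 0.05. Several members point to opposite sides in the sexes under Y665F, with Cyp2c69 at 8.72 in males and -2.08 in females, while most Y665H points are open.

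The effect of Y665F was compared between the sexes directly, as an interaction. It was higher in males than in females for 7 of 10 members, where 27.7% of all tested genes were called in either direction. The difference between the male and the female effect, on the log2 scale, was 10.80 (SE 0.78, adjusted p = 1.03e-12) for Cyp2c69 and 6.38 (SE 0.48, adjusted p = 2.4e-12) for Cyp2c40. For the summed Cyp2c40 set it was smaller (3.33, SE 0.28, adjusted p = 2.32e-11). It was 4.48 (SE 0.47, adjusted p = 3.9e-09) for Cyp2c38 and 3.91 (SE 0.27, adjusted p = 4.69e-13) for Cyp2c39. It was 2.36 for Cyp2c37, 1.88 for Cyp2c50 and 1.15 for Cyp2c54, with adjusted p-values up to 8.15e-05. For Cyp2c29, Cyp2c44 and Cyp2c70 the difference was not called, and its 95% intervals were -0.32 to 0.29, -0.22 to 0.32 and -0.19 to 0.55.

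Between Y665F males and Y665F females, 8 members were higher in males and none lower, where 22.8% of tested genes were higher and 20.3% lower. Cyp2c38 led (2.88, SE 0.34, adjusted p = 1.75e-08), then Cyp2c69 (2.32, SE 0.46, adjusted p = 8.78e-05) and Cyp2c50 (1.84, SE 0.15, adjusted p = 3.3e-12), and Cyp2c39, Cyp2c37, Cyp2c54, Cyp2c29 and Cyp2c70 were between 0.36 and 1.11. Cyp2c40 (0.68, SE 0.30, adjusted p = 0.0615) and Cyp2c44 (0.19, SE 0.090, adjusted p = 0.0898) were not called. Both were when only these 2 groups were fitted (0.64, adjusted p = 5.14e-06 and 0.15, adjusted p = 0.0360), and Cyp2c40 also with thinned counts (0.67, adjusted p = 0.0457). The sum of its set, which also holds Cyp2c67, Cyp2c68 and Cyp2c69, was called as well (1.36, SE 0.19, adjusted p = 2.75e-07). Cyp2c37, Cyp2c38, Cyp2c39 and Cyp2c69, lower in males than in females of WT, were higher in males than in females of Y665F.

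**Figure D4:**
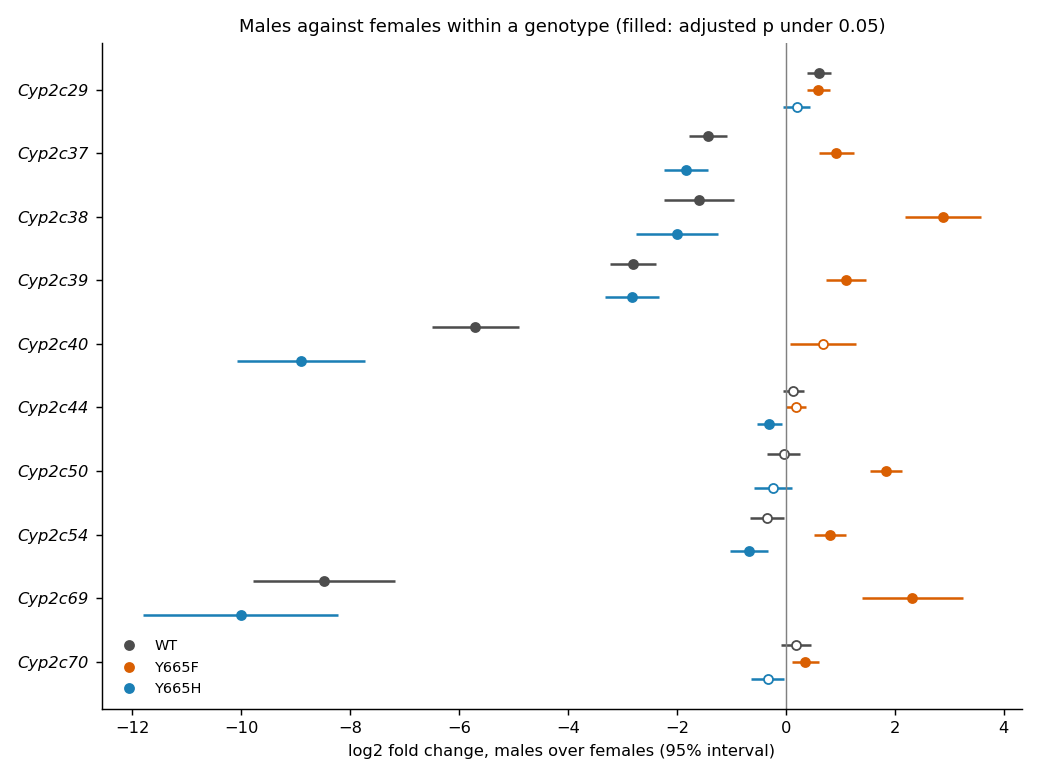
Log2 fold changes of males over females with 95% intervals for the 10 members, within WT, Y665F and Y665H, with filled points for an adjusted p under 0.05. Cyp2c69 is at -8.48 in WT, 2.32 in Y665F and -10.01 in Y665H.

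In Y665H males 3 members fell and none rose, where 3.18% of tested genes were lower and 5.22% higher. Cyp2c40 fell by 3.97 (SE 0.51, adjusted p = 6.44e-06) on the log2 scale and Cyp2c44 by 0.59 (SE 0.11, adjusted p = 9.11e-04). The summed Cyp2c40 set changed by -1.02 (SE 0.23, adjusted p = 0.00446), less than the rows of Cyp2c40 and Cyp2c69. Cyp2c69 fell by 2.85 (SE 0.81, adjusted p = 0.0251), from a level that was already low in WT males, and this call was lost when Y665H male replicate 2, 3 or 4 was left out (values of -2.72 to -2.67, adjusted p = 0.0640 to 0.0815). It was also lost after thinning the counts to equal depth (-3.32, adjusted p = 0.0608), with the share of reads in no gene as a covariate (-2.76, adjusted p = 0.0851) and with limma-voom (-2.97, adjusted p = 0.450). In these members the groups did not overlap, with only 4 Y665H males. How many of all tested genes had groups without overlap was not counted here either. The other 7 were not called, and their 95% intervals reached from -1.11 (Cyp2c38) to 0.45 (Cyp2c29). Cyp2c70 (-0.39, SE 0.15, adjusted p = 0.109) was called lower without Y665H male replicate 2 (-0.60, adjusted p = 0.0212). The median of the members was -0.38 and that of all tested genes 0.0062.

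In Y665H females 1 member was called. Cyp2c29 rose (0.61, SE 0.11, adjusted p = 0.00207), where 4.40% of tested genes were higher and 3.10% lower, with overlap between the groups. Cyp2c69 (-1.32, SE 0.46, adjusted p = 0.0709) and Cyp2c40 (-0.77, SE 0.32, adjusted p = 0.126) were not called. Cyp2c69 was called with DESeq2 (-1.33, adjusted p = 0.0359), and both were with limma-voom (-2.14, adjusted p = 0.0271 for Cyp2c69 and -1.24, adjusted p = 0.0447 for Cyp2c40). Without replicate 3, the highest Y665H female in both, they were called (-2.01, adjusted p = 0.00865 and -1.10, adjusted p = 0.0364), and without replicate 2, the lowest, they were not (-1.07, adjusted p = 0.0879 and -0.53, adjusted p = 0.15). The sum of Cyp2c40, Cyp2c67, Cyp2c68 and Cyp2c69 was called lower (-0.67, SE 0.20, adjusted p = 0.0334). The 95% intervals of the 7 other members reached from -0.65 (Cyp2c39) to 0.63 (Cyp2c38). The members' median was 0.020, against 0.0047 over all tested genes.

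The difference of the Y665H effect between the sexes was called for 1 member, Cyp2c40 (-3.20, SE 0.60, adjusted p = 0.00234), where 5.24% of all tested genes were called. It was not called with limma-voom (-3.03, adjusted p = 0.184). The sum of the Cyp2c40 set was not called either (-0.35, SE 0.29, adjusted p = 0.521), but Cyp2c40 was a small part of it in WT males (7.38 of 429 CPM). Cyp2c44 was not called (-0.44, SE 0.15, adjusted p = 0.0698), but was with DESeq2 (-0.44, adjusted p = 0.0385), with the share of reads in no gene as a covariate (-0.47, adjusted p = 0.0384), without Y665H male replicate 1 (-0.60, adjusted p = 0.0108) and without Y665H female replicate 6 (-0.48, adjusted p = 0.0374). Cyp2c70 was called only without Y665H male replicate 2 (-0.72, adjusted p = 0.0282, against -0.51, SE 0.20, adjusted p = 0.126 with all libraries). Between Y665H males and Y665H females 7 members were lower in males and none higher, where 16.7% and 14.2% of tested genes were. Without Y665H female replicate 2 there were 9 calls, with Cyp2c29 higher in males (0.30, adjusted p = 0.0490). The Cyp2c50 row was not called (-0.24, adjusted p = 0.298), while the sum of Cyp2c37, Cyp2c50 and Cyp2c54 was (-0.68, SE 0.14, adjusted p = 5.09e-04). The 7 were Cyp2c69 (-10.01, SE 0.88, adjusted p = 1.07e-10), Cyp2c40 (-8.90, SE 0.58, adjusted p = 2.95e-14), Cyp2c39 (-2.82), Cyp2c38 (-2.01), Cyp2c37 (-1.83), Cyp2c54 (-0.68) and Cyp2c44 (-0.30, SE 0.11, adjusted p = 0.0340). The sum of the Cyp2c40 set differed less than its Cyp2c69 and Cyp2c40 rows (-2.32, SE 0.24, adjusted p = 4.56e-09). The call of Cyp2c44 was lost when any of 5 libraries was left out, Y665H male replicate 2 (-0.20, adjusted p = 0.194), 3 or 4 (-0.32, adjusted p = 0.0510) or Y665H female replicate 3 or 5, and also with the share of reads in no gene as a covariate (-0.22, adjusted p = 0.305), with only these 2 groups fitted (-0.27, adjusted p = 0.267) and with no filter on low counts (-0.30, adjusted p = 0.0503). Cyp2c70 was not called (-0.34, SE 0.15, adjusted p = 0.0897), but was without Y665H male replicate 2 (-0.54, adjusted p = 0.00917) or Y665H female replicate 2 (-0.41, adjusted p = 0.0383).

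Set against each other in males, Y665H was below Y665F in 5 members, where 21.2% of tested genes were, and above it in 3, where 20.5% were. Cyp2c69 (-11.57, SE 0.91, adjusted p = 1.44e-12) and Cyp2c40 (-9.18, SE 0.58, adjusted p = 3.9e-15) differed most, then Cyp2c39 (-3.18), Cyp2c37 (-1.40) and Cyp2c70 (-0.84). The summed Cyp2c40 set was also lower in Y665H, by less than the rows of Cyp2c69 and Cyp2c40 (-2.85, SE 0.24, adjusted p = 6.5e-12). Cyp2c50 (0.96), Cyp2c29 (0.82) and Cyp2c54 (0.50, not called without Y665H male replicate 1 at 0.29, adjusted p = 0.154) were higher in Y665H. The sum of Cyp2c37, Cyp2c50 and Cyp2c54, rows that go both ways, was not called (0.23, SE 0.13, adjusted p = 0.159). Cyp2c38 was not called (-0.65, SE 0.33, adjusted p = 0.115), but was called lower without Y665H male replicate 4 (-0.95, adjusted p = 0.0386) and summed with Cyp2c39 (-0.91, SE 0.29, adjusted p = 0.0105). In females, Y665H was above Y665F in 7 members and below in none, where 30.5% and 26.0% of tested genes were. Cyp2c38 (4.24, SE 0.37, adjusted p = 1.04e-11), Cyp2c50 (3.03, SE 0.16, adjusted p = 4.99e-17) and Cyp2c54 (1.98, SE 0.16, adjusted p = 1.22e-12) led, and Cyp2c37, Cyp2c29, Cyp2c39 and Cyp2c44 followed at 1.36, 1.22, 0.74 and 0.50. Cyp2c40 was not called there (0.40, SE 0.32, adjusted p = 0.289), nor was Cyp2c69 (0.75, SE 0.46, adjusted p = 0.163). Both were without Y665H female replicate 2 (0.64, adjusted p = 0.00950 and 1.01, adjusted p = 0.0157), and so was the sum of their set (0.84, SE 0.20, adjusted p = 5.23e-04), while without Y665H female replicate 3 the values were 0.070, adjusted p = 0.860 and 0.061, adjusted p = 0.914.

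Since reads of near-identical copies may have been split or lost, the rows of each set were also summed and fitted as 1 row. Cyp2c37, Cyp2c50 and Cyp2c54 together were at 1448 CPM ± 50.8 (n = 6, SD) in WT males and 1189.6 CPM ± 189 (n = 9, SD) in Y665F males (-0.28, SE 0.11, adjusted p = 0.0374), so that the rise of the Cyp2c37 row stands against a small fall of the sum. In Y665F females the sum fell to 522 CPM ± 123 (n = 6, SD) from 1993 CPM ± 215 (n = 6, SD) (-1.93, SE 0.13, adjusted p = 3.12e-14). Cyp2c38 and Cyp2c39 together were not called in Y665F males (0.52, SE 0.24, adjusted p = 0.0729) and fell in Y665F females (-3.46, SE 0.30, adjusted p = 1.39e-11). The sum of Cyp2c40, Cyp2c67, Cyp2c68 and Cyp2c69 was 429 CPM ± 32.3 (n = 6, SD) in WT males and 1679 CPM ± 334 (n = 6, SD) in WT females (-1.97, SE 0.20, adjusted p = 1.02e-09), a smaller difference than in the Cyp2c40 and Cyp2c69 rows. It rose in Y665F males to 1525 CPM ± 118 (n = 9, SD) (1.83, SE 0.19, adjusted p = 5.94e-10) and fell in Y665F females to 593 CPM ± 133 (n = 6, SD) (-1.50, SE 0.20, adjusted p = 1.85e-07). In Y665H it fell in males to 211 CPM ± 56.7 (n = 4, SD) (-1.02, SE 0.23, adjusted p = 0.00446) and in females to 1058 CPM ± 519 (n = 6, SD) (-0.67, SE 0.20, adjusted p = 0.0334). Between Y665H and Y665F males the sum of the Cyp2c37 set was not called (0.23, SE 0.13, adjusted p = 0.159), although all 3 of its rows were.

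**Figure D5:**
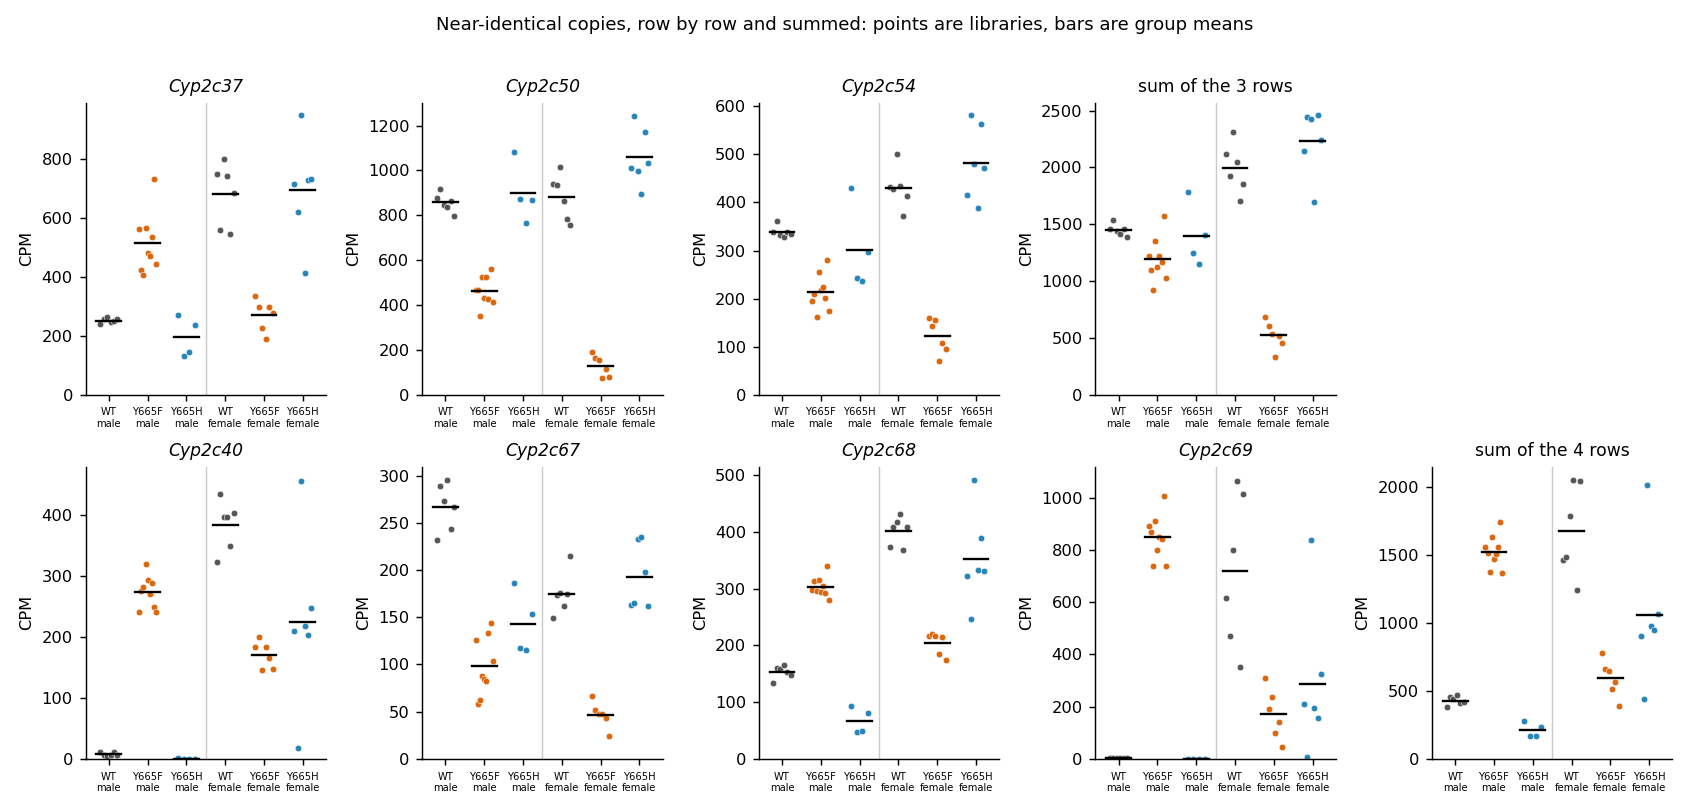
CPM (linear axes from 0) of Cyp2c37, Cyp2c50 and Cyp2c54 and their sum (top) and of Cyp2c40, Cyp2c67, Cyp2c68 and Cyp2c69 and their sum (bottom) in the 37 libraries. Points are libraries and bars are group means, and in Y665F males Cyp2c37 is high at 514 CPM while the sum of its set, 1189.6 CPM, lies under that of WT males, 1448 CPM.

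The 2 further rows of the Cyp2c40 set did not move alike. Cyp2c68 was called higher in Y665F males (0.99, SE 0.12, adjusted p = 6.72e-09) and lower in Y665F females (-0.97, SE 0.12, adjusted p = 8.24e-08), as Cyp2c40 and Cyp2c69 did. Cyp2c67 fell in Y665F of both sexes (-1.44, SE 0.17, adjusted p = 6.03e-09 in males and -1.90, SE 0.19, adjusted p = 7.31e-10 in females). It was higher in WT males than in WT females (0.61, SE 0.19, adjusted p = 0.00713). Cyp2c68 and Cyp2c67 fell in Y665H males (-1.18 and -0.90). Cyp2c55 was lower in Y665F males (-1.74, SE 0.23, adjusted p = 6.95e-08) and Y665F females (-1.09, SE 0.30, adjusted p = 0.00413) and higher in Y665H females (1.53, SE 0.27, adjusted p = 0.00151). The pseudogene Cyp2c53-ps had 158 to 331 counts in each WT male, 0 to 3 in each Y665F male, 1 to 6 in each WT female and 0 in every Y665F female. It had 87 to 187 counts in each Y665H male and 0 to 12 in each Y665H female. Cyp2c65 and Cyp2c66 had at most 4 counts in any library and were not tested.

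Genes that work with the CYP2C enzymes were counted in lists, to be read beside the shares of all tested genes given above. Of the genes of P450 electron transfer and heme synthesis, Y665F males had 3 higher and 2 lower of 13, Y665F females 3 higher and 5 lower of 13, Y665H males 2 higher and 0 lower of 13 and Y665H females 3 higher and 0 lower of 13. Por, the electron donor of the CYP2C enzymes, was lower in WT males than in WT females (-1.75, adjusted p = 4.07e-12), rose in Y665F males (0.47, adjusted p = 0.00253) and in Y665F females missed the threshold (0.10, adjusted p = 0.574). Fech, which puts iron into heme, was the lowest called gene of the list in Y665F males (-0.49, adjusted p = 9.84e-11), and Cpox, an earlier enzyme of heme synthesis, in Y665F females (-0.82, adjusted p = 5.29e-10). Cyb5r3, a cytochrome b5 reductase, was the highest called gene in Y665F females (0.86, adjusted p = 5.66e-09). In Y665H the highest called genes were Cpox in males (0.37, adjusted p = 0.0101) and Pgrmc1, a heme-binding partner of P450 enzymes, in females (0.24, adjusted p = 0.0463). The median log2 fold change of the list was -0.014 in Y665F males, -0.081 in Y665F females, 0.088 in Y665H males and 0.12 in Y665H females.

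The list of epoxide hydrolases, Cyp2j genes and other eicosanoid enzymes, which handle the same fatty acids, had 3 higher and 7 lower of 10 tested in Y665F males, 3 higher and 5 lower of 10 in Y665F females, 0 higher and 3 lower of 10 in Y665H males and 2 higher and 0 lower of 10 in Y665H females. Ephx2, the soluble hydrolase that opens fatty acid epoxides, fell in Y665F males (-0.89, adjusted p = 6.3e-11) and Y665F females (-0.33, adjusted p = 0.00469), while Y665H females had more of it (0.30, adjusted p = 0.0458). The extremes among called genes were Alox15, a lipoxygenase (2.65, adjusted p = 1.62e-04), and Cyp2j8 (-0.97, adjusted p = 0.00369) in Y665F males, Alox15 (2.58, adjusted p = 4.45e-05) and Cyp2j5 (-1.003, adjusted p = 4.48e-14) in Y665F females, Alox12 (-0.61, adjusted p = 0.0437) in Y665H males and Ephx1 (0.39, adjusted p = 0.0360) in Y665H females. The median log2 fold change of the list was -0.74 in Y665F males, -0.34 in Y665F females, -0.12 in Y665H males and 0.080 in Y665H females.

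For Cyp2c70 the neighbouring pathway is bile acid synthesis, where Y665F males had 2 higher and 10 lower of 15 tested, Y665F females 0 higher and 9 lower of 15, Y665H males 1 higher and 0 lower of 15 and Y665H females 2 higher and 0 lower of 15. Cyp7a1, the rate-limiting enzyme, was the highest called gene in Y665F males (2.60, adjusted p = 9.52e-08) and in Y665H males (1.77, adjusted p = 0.00313), and Cyp7b1, an oxysterol hydroxylase, the lowest in Y665F males (-2.31, adjusted p = 2.06e-12). Cyp39a1 was the lowest in Y665F females (-2.12, adjusted p = 3.06e-11) and Scp2, a sterol carrier and thiolase, the highest in Y665H females (0.46, adjusted p = 0.00616). The median log2 fold change of the list was -0.23 in Y665F males, -0.34 in Y665F females, -0.023 in Y665H males and 0.10 in Y665H females. Bile acid transport and feedback had 2 higher and 7 lower of 12 in Y665F males, 0 higher and 10 lower of 12 in Y665F females, 1 higher and 1 lower of 12 in Y665H males and 0 higher and 0 lower of 12 in Y665H females. The uptake carrier Slco1a1 was lowest in Y665F of both sexes (-4.09, adjusted p = 7.97e-12 in males and -2.48, adjusted p = 4.65e-06 in females), and Slco1a4 was highest in males (0.97, adjusted p = 1.79e-04). In Y665H males Nr1h4, the bile acid receptor, rose (0.28, adjusted p = 0.0421) and the export pump Abcb11 fell (-0.36, adjusted p = 0.0308). The median log2 fold change of the list was -0.32 in Y665F males, -0.74 in Y665F females, -0.046 in Y665H males and 0.020 in Y665H females.

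Among nuclear receptors and liver transcription factors, 3 higher and 3 lower of 18 were called in Y665F males, 3 higher and 5 lower of 18 in Y665F females, 0 higher and 1 lower of 18 in Y665H males and 0 higher and 0 lower of 18 in Y665H females. Nr1i3, which encodes CAR, was not called in Y665F males (0.23, adjusted p = 0.0692) or females (-0.066, adjusted p = 0.680), nor was Hnf4a (-0.10, adjusted p = 0.267 and 0.14, adjusted p = 0.161). The pioneer factor gene Foxa1 was lowest in Y665F males (-0.83, adjusted p = 5.49e-05) and females (-1.22, adjusted p = 3.28e-06), Arntl was highest in males (1.37, adjusted p = 7.18e-05), Foxa3 highest in females (0.73, adjusted p = 1.11e-04), and Nr1i2, which encodes PXR, was lowest in Y665H males (-0.45, adjusted p = 0.00655). The median log2 fold change of the list was -0.046 in Y665F males, -0.065 in Y665F females, -0.072 in Y665H males and -0.0097 in Y665H females. Of the genes of the growth hormone and STAT5 axis, 10 higher and 2 lower of 14 were called in Y665F males, 3 higher and 0 lower of 14 in Y665F females, 0 higher and 1 lower of 14 in Y665H males and 0 higher and 2 lower of 14 in Y665H females. Cux2, a repressor known to be female-specific in liver, rose in Y665F males (7.13, adjusted p = 3.31e-16), and the male-biased repressor Bcl6 fell there (-2.20, adjusted p = 3.49e-09). In Y665F females the prolactin receptor gene Prlr was highest (2.38, adjusted p = 2.02e-12), in Y665H males Igfals, the acid-labile subunit, was lowest (-0.32, adjusted p = 0.0426), and in Y665H females Cux2 fell (-1.30, adjusted p = 0.0119). The median log2 fold change of the list was 0.62 in Y665F males, 0.031 in Y665F females, -0.15 in Y665H males and -0.27 in Y665H females.

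Markers of liver cell types were counted in the same way, where 27.2% of tested genes were higher and 25.3% lower in Y665F males, and 17.8% higher and 23.3% lower in Y665F females. Of 9 tested T and NK cell markers, 8 were higher in Y665F males and 9 in Y665F females. Summed, WT males had 2.84 to 5.16 CPM, Y665F males 6.64 to 17.5, Y665H males 2.51 to 5.27, WT females 4.05 to 5.35, Y665F females 8.81 to 11.6 and Y665H females 2.10 to 3.86. Of 8 markers of Kupffer cells and monocytes, 8 were higher in Y665F males and 2 in Y665F females. Their sum was 148 to 225 CPM for WT males, 239 to 544 for Y665F males, 219 to 310.3 for Y665H males, 271 to 444 for WT females, 371 to 499 for Y665F females and 160.4 to 433 for Y665H females. Of 6 markers each, 5 of neutrophils (summed 2.18 to 3.59 CPM in WT and 4.61 to 11.6 CPM in Y665F) and 5 of stellate cells (338 to 403 and 436 to 642 CPM) were higher in Y665F males. In Y665F females 2 of neutrophils were higher and 1 of stellate cells was lower, 2 of 6 of endothelial cells were higher and 1 of 6 of cholangiocytes was lower. In Y665F males 2 markers of cholangiocytes were higher and 2 lower of 6, and 1 of 6 of endothelial cells was higher. Among hepatocyte markers, 2 were higher and 5 lower of 9 tested in Y665F males and 2 higher and 3 lower in Y665F females. Their sum, most of it Alb, was 93021 to 102061 CPM for WT males, 137303 to 153038 for Y665F males, 85641 to 103484 for Y665H males, 116360.2 to 139164 for WT females, 201968 to 236561 for Y665F females and 109145 to 142028 for Y665H females. Pericentral markers had 7 higher and 2 lower of 11, and periportal markers 2 higher and 8 lower of 10, in Y665F males. In Y665F females the pericentral list had 2 higher and 3 lower, and the periportal list 1 higher and 4 lower. In Y665H males, where 5.22% of tested genes were higher and 3.18% lower, 3 pericentral markers were higher and 6 periportal markers lower, of the hepatocyte list 1 was higher and 1 lower, 1 of Kupffer cells and monocytes and 1 of cholangiocytes were higher, and 1 of T and NK cells was lower. In Y665H females 2 T and NK cell markers were lower, and no hepatocyte marker of the 3 lists was called. No marker of any list was at 0 in a whole group, and the part of cell make-up in the Cyp2c values was not tested.

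Genes outside the family with the most similar pattern were named by the root mean square distance between centred log2 CPM means of the 6 groups, among 8230 genes with a group mean of at least 10 CPM. Closest to Cyp2c69 were Slc22a26 (distance 1.05) and Sult3a1 (1.53) and to Cyp2c40 Slc22a26 (distance 1.35) and Cyp2b9 (1.36). Slc22a26, an organic anion transporter family gene, was at 0.399 CPM in WT males, 195 in Y665F males, 0.451 in Y665H males, 159 in WT females, 123 in Y665F females and 106 in Y665H females. For these 2 members the distances were larger than for the others. Cyp2c37 was closest to Cyp4a10 (distance 0.28) and Slco1a4 (0.32) and Cyp2c38 to Cyp4a14 (distance 0.44) and Ildr2 (0.51), where Cyp4a10 and Cyp4a14 are fatty acid hydroxylases. Cyp2c39 was closest to Fmo2 (distance 0.42) and Trim24 (0.51), Cyp2c50 to Ddah1 (distance 0.20) and Retsat (0.32), Cyp2c54 to Pla2g12a (distance 0.17) and Aacs (0.17) and Cyp2c29 to Tmem243 (distance 0.093) and Ugdh (0.10). Cyp2c44 and Cyp2c70, whose group means spanned 0.781 and 0.876 on the log2 scale, were left out of this search by its rule. Among the members themselves, Cyp2c44 and Cyp2c70 were closest (0.42), Cyp2c50 and Cyp2c54 were 0.48 apart and Cyp2c40 and Cyp2c69 1.08. These distances describe 6 group means and carry no test.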

How the data were processed

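The deposited files hold raw read counts per gene, 1 file for each of 37 libraries. Per the labels, they come from paired-end sequencing of ribosome-depleted total RNA of frozen mouse liver with a stranded kit. The authors used FastQC 0.11.9, Trimmomatic 0.36, STAR, SAMtools 1.9, Picard 2.9.2 and HTSeq 0.9.1 with mm10, per the submitters' processing notes, which give no version of STAR. The annotation and the counting options are not given in the sources used here. The 5 rows that name no gene hold 32.4% to 49.9% of a library's reads, those aligned to several places 19.0% to 30.1%, and stayed out of library sizes and tests.

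Counts were tested with edgeR 4.0.16 (quasi-likelihood, R 4.3.3) after filterByExpr (minimum count 10, minimum total 15) left 15152 of 24421 genes, with TMM scaling and 1 mean per group over all 37 libraries. Benjamini-Hochberg adjustment ran over all tested genes of a comparison, with calls under 0.05. The depth of 24388434 to 73937726 gene counts leaves the most counting error in members with under 100 counts in some libraries: Cyp2c40 and Cyp2c69 in Y665H males, Cyp2c39 in WT males, Y665H males and 1 Y665F female, and Cyp2c38 in Y665F females. The fit was checked on simulated counts. No 2 libraries of a group were alike enough to be 1 library deposited a second time (chi-square per degree of freedom of at least 8.97). The sexes were compared within a genotype, genotypes within a sex, and the effects of a substitution between the sexes. Alternatives were DESeq2 1.42.0, limma-voom (limma 3.58.1), DESeq2's size factors, no filter, only the groups compared, a covariate, thinned counts, summed copies, a replicate block and leaving out each library.

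The members were taken by symbol, and they, the lists and the named genes were chosen with earlier results of these data known. Named were all members, the other Cyp2c rows, the highest and lowest called gene of each list in each comparison with WT, and the 2 genes with the most similar pattern to each member that spanned at least 1 on the log2 scale. Por, Ephx2, Nr1i3 and Hnf4a, outside that rule in some comparisons, were named for their role after values were seen. Replicate numbers did not pair the samples (only 1 of 22 same-numbered pairs had a correlation of deviations over 0.1). Copies were set by at least 90% identity of GENCODE M21 coding sequences (GRCm38) in place of the protein identity first planned. Upstream windows are those of RefSeq on GRCm38.p6.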

Additional observations from a re-analysis of the deposited data

Results flagged for a closer look

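Among the 60 combinations of a member and a group, 4 had 1 library farther from the others than Dixon's criterion allows, and chance gives about 1 in 20. Y665F male replicate 8 was the highest of its group for Cyp2c37 (733.0 CPM, the others 406 to 565) and for Cyp2c39 (10.7 CPM, the others 6.71 to 8.67). WT male replicate 2 was the highest WT male for Cyp2c54 (361 CPM, the others 328 to 339). Y665H male replicate 1 was the highest of the 4 Y665H males for Cyp2c69 (0.544 CPM, the others 0.145 to 0.201).

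The effect of Y665F differed between males and females, by the interaction test, in 7 members, where 27.7% of tested genes were called. The male effect minus the female effect on the log2 scale was 2.36 for Cyp2c37, 4.48 for Cyp2c38, 3.91 for Cyp2c39, 6.38 for Cyp2c40, 1.88 for Cyp2c50, 1.15 for Cyp2c54 and 10.80 for Cyp2c69, and 3.33 for the summed Cyp2c40, Cyp2c67, Cyp2c68 and Cyp2c69. The effect of Y665H differed between the sexes in 1 member, Cyp2c40 (-3.20), where 5.24% of tested genes were called. The sum of its near-identical copies, of which Cyp2c40 was a small part in males, was not called (-0.35).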

How the results depend on the processing

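Of the members' called fold changes, 937 values without 1 library and 580 under the other alternatives kept their direction and call, and 9 and 12 kept the direction only. Summing copies gives 1 value for a whole set, which stands here for each of its rows. For the Cyp2c37 set this value was -0.28 in Y665F against WT males and 0.23 in Y665H against Y665F males. Both have the opposite sign to the called Cyp2c37 row, and neither is a value of Cyp2c37 alone. No other called result changed sign. The number of members called in Y665H against WT females, 1, was 2 with DESeq2 and 3 with limma-voom or summed copies (where Cyp2c40 and Cyp2c69 are 1 summed row, counted for both), and 1 to 3 without single libraries (3 without Y665H female replicate 3). The number for the sex difference of the Y665H effect, 1, was 2 with DESeq2 or with the share of reads in no gene as a covariate and 0 with limma-voom or summed copies, and 1 to 2 without single libraries (2 without Y665H female replicate 6 or Y665H male replicate 1 or 2). Uncalled values changed sign as follows. For Cyp2c39 the sex difference of the Y665H effect was 0.0015 with no filter and 0.26 with thinned counts, and for Cyp2c44 that of the Y665F effect was -0.034 with the covariate. In Y665H against WT females, Cyp2c37 was -0.0014 with limma-voom, and Cyp2c38 was -0.0012 with only the groups compared, -0.0097 with the covariate and -0.010 with summed copies. In Y665H against Y665F, Cyp2c44 in males was -0.018 with limma-voom and -0.012 with the covariate, and Cyp2c40 in females -0.071 with limma-voom. Cyp2c50 in Y665H against WT males was -0.054 with summed copies. Without single libraries, uncalled values that changed sign ran from -0.48 to 0.19 (Cyp2c39) for the sex difference of the Y665H effect, from -0.019 to 0.075 (Cyp2c44) and from -0.091 to 0.073 (Cyp2c29) for that of the Y665F effect, from -0.14 to 0.11 (Cyp2c44, Y665H against Y665F males), from -0.043 to 0.13 (Cyp2c50, Y665H against WT males), from -0.083 to 0.14 (Cyp2c37) and -0.071 to 0.093 (Cyp2c38) in Y665H against WT females, and from -0.082 to 0.0029 (Cyp2c50, WT males against WT females). The cause was not tested.

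Over all genes, the 1136 calls in Y665H against WT females became 80 with only these groups fitted, 757 with no filter, 452 with the covariate, and from 442 (without Y665H female replicate 2) to 2743 (without Y665H female replicate 6), with 697, 645 and 689 without WT female replicate 2 or 5 or Y665H female replicate 5. The 1273 calls in Y665H against WT males became 2186 with only these groups, 543 with the covariate, and 799, 644 and 519 without WT male replicate 5 or Y665H male replicate 2 or 3. With the covariate, 7537 calls between the sexes of WT became 4379, 4676 of Y665H became 2142 (2292 with only these groups) and 4190 for the sex difference of the Y665F effect became 2602. The 794 for that of the Y665H effect became 1655 with the covariate, 1252 with DESeq2, 1355 without Y665H female replicate 6 and 332 without Y665H male replicate 3. Depth limits Cyp2c69 and Cyp2c40 in Y665H males, at 8 to 72 counts a library, Cyp2c39 in Y665H males (28 to 104) and WT males (57 to 78), and Cyp2c38 in Y665F females (40 at the lowest).

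Replicate numbers did not pair the samples. The correlation of deviations ran from -0.23 to 0.12 over 22 pairs, and 3 of 22 samples correlated best with their own number. With the replicate block within sex, the members called numbered 9 and 9 in Y665F against WT males and females, 2 in Y665H against WT males, where Cyp2c69 missed the threshold (-2.88, adjusted p = 0.0626), and 1 in Y665H against WT females. With the block, 3 uncalled values changed sign, Cyp2c38 in Y665F against WT males (-0.22), Cyp2c37 in Y665H against WT females (-0.0051) and Cyp2c29 in the sex difference of the Y665F effect (0.037). A block across the sexes, added after the data had been seen, left 6, 8 and 7 members called between the sexes of WT, Y665F and Y665H. Over all genes the block moved 1273 calls to 664 in Y665H against WT males and 794 to 414 in the sex difference of the Y665H effect.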
